A study of Homo sapiens with 31 samples.

Results

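The proteasome core particle is a barrel of stacked protein rings that degrades ubiquitin-tagged proteins. Its outer rings are built of alpha subunits, which form the gate for substrates, and its inner rings of beta subunits, some of which carry the proteolytic sites. Every subunit is needed in equal copy number in a finished particle, and the genes are transcribed in every dividing cell. Their mRNAs are short and abundant, as are those of ribosomal proteins. Ribosomal protein mRNAs carry a 5' terminal oligopyrimidine (TOP) tract, a run of pyrimidines that begins with a C at the cap. LARP1 binds that tract and represses such mRNAs when the kinase complex mTORC1 is inhibited. The proteasome mRNAs are not members of the TOP class, which makes them short, abundant transcripts to set beside it.

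The 10 transcripts described here encode 6 alpha and 4 beta subunits. They were taken by their Ensembl transcript identifiers and kept because the length listed for each equals the length of the encoded protein minus 9. All 10 met that rule, out of 227264 transcripts listed in each library, and all 10 passed the filter on low counts in every comparison. The alpha subunits are PSMA2 (ENST00000223321.9), PSMA3 (ENST00000216455.9), PSMA4 (ENST00000044462.12), PSMA5 (ENST00000271308.9), PSMA6 (ENST00000261479.9) and PSMA7 (ENST00000370873.9). The beta subunits are PSMB1 (ENST00000262193.7), PSMB2 (ENST00000373237.4), PSMB4 (ENST00000290541.7) and PSMB5 (ENST00000361611.11). PSMB5 is the only one of these 4 that carries a proteolytic site, the chymotrypsin-like one that the drug bortezomib blocks. PSMB2 has the shortest listed length, 192, and PSMB4 the longest. PSMA2 and PSMA4 each have counts identical to those of 1 other listed transcript, so their values cannot be assigned to a single isoform. For every subunit except PSMB1 and PSMB4, nearby listed transcripts with closely correlated counts were also set aside. There were 8 each for PSMA4 and PSMA6 and 3 each for PSMA3 and PSMB5. Whether the transcripts set aside share reads with the subunit was not tested.

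The cells were HEK293 T-REx, a human embryonic kidney line fitted for inducible transgenes, and the study addressed eIF4A1, the RNA helicase of translation initiation, its paralog eIF4A2 and LARP1 under mTORC1 inhibition. Ribosome profiling, which counts the mRNA fragments protected by ribosomes (footprints), was done in naive cells, EIF4A1 KO cells and EIF4A2 KO cells. Each genotype had 2 libraries with DMSO, the solvent control, and 1 library each after 30 min of 1 µM or 10 µM PP242, an mTOR kinase inhibitor. RNA-seq was done on 2 libraries each of naive and EIF4A1 KO cells, with no RNA-seq of EIF4A2 KO cells analysed here. In the pulldown assay, lysates of cells with SBP-eIF4A1 or SBP-eIF4A2, a helicase bearing a streptavidin-binding peptide, gave 2 input and 2 pulldown libraries each, from cells without siRNA or PP242. SBP-eIF4A1 cells were also studied 72 h after control siRNA (siControl: 2 inputs, 2 pulldowns) or LARP1 siRNA (siLARP1: 2 inputs, 1 pulldown). The labels do not say whether the knockouts are single clones or whether replicates are separate cultures, so p-values measure the spread between these libraries, which may be technical. The naive and EIF4A1 KO profiling libraries and all SBP-eIF4A1 libraries carry 1 range of sample numbers, and the EIF4A2 KO profiling, SBP-eIF4A2 and RNA-seq libraries another, with no dates. Any difference tied to those ranges therefore cannot be told apart from the EIF4A2 KO genotype in profiling, or from eIF4A1 against eIF4A2 in the pulldown. Footprints relative to RNA in naive and EIF4A1 KO cells also cross the ranges, so range and assay cannot be told apart there.

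Library totals, after reduction to 1 transcript per locus, ran from 2513933 to 6415825 counts in ribosome profiling, from 11859379 to 17585630 in the pulldown assay and from 19654778 to 21571248 in RNA-seq. The lowest count of any of the 10 transcripts was 307 in a pulldown library, 401 in a profiling library and 2204 in an RNA-seq library. The chi-square per degree of freedom between replicates ran from 1.25 in DMSO EIF4A1 KO profiling to 13.1 in the siLARP1 inputs, against 1 for sampling noise alone. The DMSO profiling pairs and the inputs without siRNA lay between 1.25 and 1.57, little above that noise. The SBP-eIF4A2 pulldowns stood farther apart at 6.58, against 1.76 for the SBP-eIF4A1 pulldowns. For siControl the value was 6.37 in the inputs and 11.8 in the pulldowns. The transcripts of EIF4A1, EIF4A2 and LARP1 could not be matched to a gene in the tables used here, so genotypes and knockdown rest on the labels. All level values below are CPM, counts scaled to a fixed library total with factors from the trimmed mean of M values (TMM). A change was called at a Benjamini-Hochberg adjusted p under 0.05 in edgeR's two-sided quasi-likelihood test over all transcripts of that fit. Bulk lysates were measured, so fewer cells with an mRNA and less of it per cell cannot be told apart.

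The listed transcription starts were examined first, since the TOP class is defined there. RefSeq start windows (GRCh38.p14) were found for 8 of the 10 genes, as 12 windows. PSMB1 and PSMA7 had none. A start was counted as TOP-like when it was a C followed by at least 4 more pyrimidines (C or T, read on the gene's strand), at the listed base only. By that count 1 of the 12 windows was TOP-like, against 4.07% of 35116 windows over all genes and 56.5% of 85 windows of RPS and RPL genes, the ribosomal proteins. The windows below show the 2 genes with a pyrimidine start, PSMB5 and PSMA4, beside 4 genes that start with a purine. The 10 bases before the listed start are in lower case and the 15 from the start onward in capitals.
PSMB5, first listed start (chr14:23034886-23034910, minus strand): agaattagttCTTTCTGCCCACACT
PSMB5, second listed start (chr14:23035206-23035230, minus strand): cttctcaaagATGGCCGACCTCACT
PSMA4, first listed start (chr15:78540395-78540419, plus strand): tcccgctcccCCCGCCCCAACCCAG
PSMA2 (chr7:42932160-42932184, minus strand): gctgtgctttGGCTCTTCGGGTAAA
PSMA6, first listed start (chr14:35292307-35292331, plus strand): agagctcagtGCTCGAACTGGCTCC
PSMB2 (chr1:35641512-35641536, minus strand): gcgtcgcgccAATCTTCGCTCTGAG
PSMB4 (chr1:151399563-151399587, plus strand): cattttttctGCTACCGTGACTAAG
The first PSMB5 start opens with 6 pyrimidines in a row, whereas its second start, farther to the 5' side, opens with an A. The first PSMA4 start opens with 3 pyrimidines before a G, and the other 2 PSMA4 starts with an A and a G. Which start these cells use was not measured, and a match is a description of the listed letters. The RefSeq gene of PSMB5 spans chr14:23025851-23035220 and that of PSMA4 chr15:78540405-78552417.

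In naive cells the 10 mRNAs were among the most abundant per length. RNA density, in CPM per 100 units of the listed length, was highest for PSMB1 at 160.8 ± 1.27 (SD, n = 2) and lowest for PSMA3 at 59.5 ± 0.375 (SD, n = 2). Averaged over the 4 RNA-seq libraries, the 10 lay between percentiles 96.5 and 98.8 of the 24714 transcripts tested. Footprint density in DMSO was highest for PSMA4 at 265 ± 7.92 (SD, n = 2) and lowest for PSMB5 at 86.2 ± 0.156 (SD, n = 2). The order of the 2 scales differed: PSMB2, with the second-lowest RNA density (62.9), had the second-highest footprint density (245.6).

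The subunits are needed in equal number, but neither their RNA nor their footprints were equal per length. The coefficient of variation over the 10 was 34.2% for RNA density and 36.2% for footprint density in naive cells, each the mean of 2 libraries. Footprint density divided by RNA density ran from 0.98 for PSMA7 (0.96 to 1.00 over the pairings of libraries) to 3.91 for PSMB2 (3.88 to 3.93). The ranges of PSMA3 (2.09 to 2.27) and PSMA4 (2.16 to 2.26), next in order below PSMB2, overlapped each other. PSMB5 had the second-lowest ratio, 1.06, and its range (1.01 to 1.11) did not reach that of PSMA6 above it (1.16 to 1.20). The median ratio of the 10 was 1.59 against 1.01 for all 20662 transcripts with both values, and 9 of the 10 lay above that median. Among 1725 transcripts with a listed length in the range of these 10, the 10 included, the median was 1.04.

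**Figure D1:**
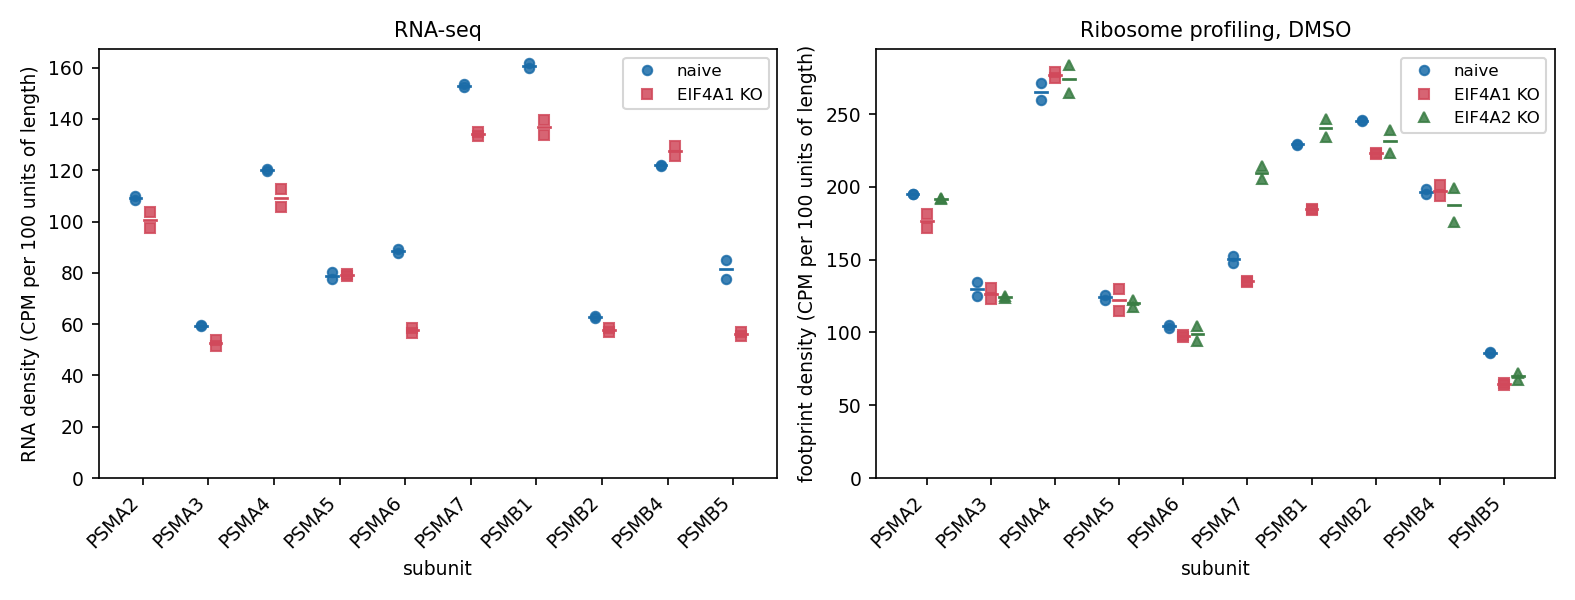
RNA density (left) and DMSO footprint density (right) of each subunit in CPM per 100 units of listed length; points are single libraries and short lines the means. PSMB1 has the highest RNA density in naive cells (160.8) and PSMA4 the highest footprint density (265); PSMA6 and PSMB5 show the widest gaps between naive and EIF4A1 KO RNA, and PSMA7 footprints stand higher in EIF4A2 KO than in the other genotypes.

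Without eIF4A1, the RNA of most of these subunits was lower. In EIF4A1 KO against naive cells 8 of the 10 were called, all 8 lower, where 37.3% of all transcripts were called and 18.9% were called lower. The 10 are abundant mRNAs, in which smaller changes can reach a call than in the typical transcript. The median log2 change of the 10 was -0.16, against -0.0019 over all 24714 transcripts. Over 1959 others in the same range of listed length it was -0.032, and 22.3% of those were called lower. PSMA6 and PSMB5 fell most.

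PSMA6, the alpha1 subunit, was at 208 and 211 CPM in the naive libraries and at 138.5 and 134 CPM in the EIF4A1 KO libraries. Its log2 change was -0.62 (SE 0.040, adjusted p = 3.47e-14, n = 2 against 2 libraries, edgeR). PSMB5, the catalytic beta5 subunit, was at 197 and 216 CPM in naive cells and at 140.2 and 145.0 CPM in the KO. The groups did not overlap for either gene, and the naive PSMB5 libraries lay farther apart than those of PSMA6. The PSMB5 change was -0.53 (SE 0.043, adjusted p = 7.88e-12, edgeR).

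PSMB1, the beta6 subunit, stood at 371 and 375 CPM in naive and at 310.4 and 324 CPM in KO cells, a log2 change of -0.23 (SE 0.035, adjusted p = 1.74e-06, edgeR). The other 5 that fell, PSMA2, PSMA3, PSMA4, PSMA7 and PSMB2, had log2 changes from -0.19 to -0.12. Ranked from the lowest change over all transcripts, these 5 lay only at percentiles 30.7 to 37.1. PSMA6 lay at percentile 9.4, PSMB5 at 11.6 and PSMB1 at 26.8. PSMA5 (log2 change 0.0045, adjusted p = 0.94) and PSMB4 (0.063, adjusted p = 0.16) were not called. PSMA5 and PSMB4 thus had point estimates near 0 beside 8 subunits that fell. Leaving out EIF4A1 KO replicate 1, which left 1 library in that group, gave a median over the 10 of -0.12. The calls of PSMA2 (-0.070), PSMA3 (-0.14), PSMA4 (-0.087) and PSMB2 (-0.10) were lost there. PSMB2 also lost its call without naive replicate 2 (adjusted p = 0.071) or EIF4A1 KO replicate 2 (adjusted p = 0.067), and with DESeq2 PSMA2 (adjusted p = 0.075) and PSMB2 (0.14) were not called.

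In DMSO footprints, PSMB5 and PSMB1 fell. In EIF4A1 KO against naive cells 2 of the 10 were called, both lower, where 22.9% of all 19579 transcripts were called and 12% lower, so the share of these subunits was near the background. The median over the 10 was -0.11 against -0.011 over all transcripts. Over 1624 others in the same range of listed length it was -0.083, near that of the 10, and 16.7% of those were called lower. PSMB5 footprints were at 218.6 and 219.1 CPM in naive cells and at 163.1 and 165.6 CPM in the KO, a log2 change of -0.41 (SE 0.077, adjusted p = 7.71e-06, edgeR). PSMB1 footprints were at 530.8 and 532.9 CPM in naive and at 428.9 and 427.8 CPM in KO cells, a log2 change of -0.31 (SE 0.060, adjusted p = 1.82e-05, edgeR). In both genes the KO libraries lay below both naive libraries by far more than replicates differed. The 8 not called had log2 changes from -0.15 to 0.063, PSMA6 among them at -0.089 (adjusted p = 0.40).

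In footprints relative to RNA, the interaction of assay and genotype, PSMA6 and PSMA4 rose in the EIF4A1 KO. These 2 calls of 10, both higher, compare with 9.87% of 24507 transcripts called and 3.92% called higher. PSMA6 footprints were at 249 and 244 CPM in naive and at 232.5 and 230.4 CPM in KO cells, while its RNA fell as given above. Its footprint-to-RNA change was a log2 value of 0.52 (SE 0.079, adjusted p = 5.27e-07, edgeR), and the naive ratio of densities of 1.18 became 1.70. PSMA6 thus lost RNA with a smaller, uncalled difference in footprints, whereas PSMB5 and PSMB1 were lower in both. The RNA and footprint libraries compared here carry different ranges of sample numbers.

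PSMA4, the alpha3 subunit, had footprints at 682.9 and 654.8 CPM in naive and at 691.7 and 702.9 CPM in KO cells, and RNA at 303.4 and 301.8 against 265.9 and 283.9 CPM. Its change was 0.19 (SE 0.065, adjusted p = 0.044, edgeR), and the call was lost in 7 of 14 alternative settings. Among these were leaving out either naive DMSO library (adjusted p = 0.088 and 0.40), either EIF4A1 KO DMSO library (0.27 and 0.33), RNA-seq naive replicate 1 (0.063) or RNA-seq EIF4A1 KO replicate 1 (0.24). The median over the 10 was 0.0034, against -0.033 over all transcripts. Of all calls 39.7% were higher, and 51.0% with library totals in place of TMM.

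**Figure D2:**
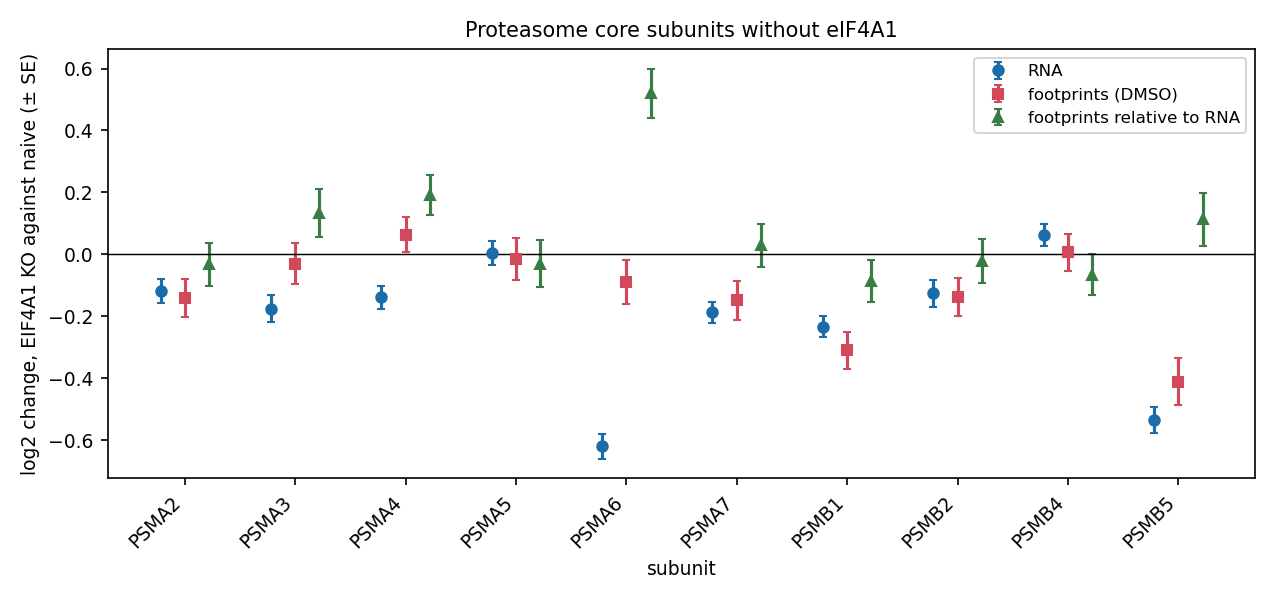
Log2 change of RNA, DMSO footprints and footprints relative to RNA for each subunit in EIF4A1 KO against naive cells, with bars of 1 SE from the edgeR fit. PSMA6 has the lowest RNA change (-0.62) and the highest footprint-to-RNA change (0.52), while PSMB5 lies below 0 in RNA (-0.53) and in footprints (-0.41).

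Without eIF4A2, the footprints of PSMA7 rose and those of PSMB5 fell. These 2 of 10 compare with 8.2% of the 19579 transcripts called in EIF4A2 KO against naive DMSO libraries. PSMA7, the alpha4 subunit, was at 364.4 and 353.3 CPM in naive and at 490.1 and 512.4 CPM in EIF4A2 KO cells. Its log2 change was 0.48 (SE 0.058, adjusted p = 2.51e-11, edgeR). PSMB5 was at 183.1 and 171.6 CPM in the EIF4A2 KO against 218.6 and 219.1 CPM in naive cells, a log2 change of -0.30 (SE 0.069, adjusted p = 0.00077, edgeR). The libraries did not overlap for either gene, but the PSMB5 call was lost without EIF4A2 KO replicate 2 (adjusted p = 0.063). The other 8 had log2 changes from -0.086 to 0.068, and the median of all 10 was -0.054.

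Between the knockouts, PSMA7 and PSMB1 footprints were lower in the EIF4A1 KO than in the EIF4A2 KO, 2 of 10 where 22.9% of transcripts were called. PSMA7 was at 324.2 and 321.7 CPM in the EIF4A1 KO, below both other genotypes, and its log2 difference from the EIF4A2 KO was -0.63 (SE 0.063, adjusted p = 6.25e-16, edgeR). PSMB1 was at 571.6 and 543.5 CPM in the EIF4A2 KO, and its difference was -0.38 (SE 0.060, adjusted p = 1.39e-07, edgeR). PSMB5, lower in both knockouts than in naive cells, differed between them by -0.11 (SE 0.079, adjusted p = 0.35). The comparisons with naive cells share the naive libraries, and no RNA-seq of EIF4A2 KO cells was analysed here to set beside the PSMA7 footprints.

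The response to 30 min of PP242 was compared as the mean of both doses against DMSO within each genotype. Each dose had 1 library per genotype, which the fit assumes to vary like the DMSO pairs. The changes were small, with no subunit beyond a log2 change of 0.34 in size, and they were mixed in direction. PP242 footprint libraries differ from DMSO in overall composition: with library totals in place of TMM the median of all transcripts moved from -0.015 to 0.146 in naive, from -0.0003 to 0.139 in EIF4A1 KO and from 0.0013 to 0.16 in EIF4A2 KO cells. The share of higher among all calls moved with it from 37.9% to 79.2%, from 38.0% to 81.2% and from 38.5% to 77.5%. The directions below hold for TMM. In naive cells the median of the 10 minus that of all transcripts was -0.125 with TMM and -0.124 with library totals. This gap is nearly fixed in advance, because a change of scaling shifts all transcripts about alike. PSMA3, PSMA4 and PSMA5 lay above the median of all transcripts in naive cells.

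In naive cells 3 of the 10 were called, where 9.88% of 21018 transcripts were. PSMB4, the beta7 subunit, was at 497.5 and 505.9 CPM in DMSO, 375.9 CPM at 1 µM and 431.3 CPM at 10 µM, a log2 change of -0.32 (SE 0.060, adjusted p = 1.46e-05, edgeR). PSMA2, the alpha2 subunit, was at 438.3 and 438.4 CPM in DMSO, 359.2 at 1 µM and 380.8 at 10 µM, a log2 change of -0.25 (SE 0.060, adjusted p = 0.0018, edgeR). Both lay below DMSO at both doses, and nearer to it at the higher dose.

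PSMA4 went the other way: its DMSO libraries stood at 682.9 and 654.8 CPM, and its PP242 libraries at 723.0 (1 µM) and 770.3 CPM (10 µM; log2 change 0.16, SE 0.054, adjusted p = 0.044, edgeR). The PSMA4 call was lost without naive DMSO replicate 2 (adjusted p = 0.30) and with DESeq2 (0.15). The other 7 ranged from -0.15 to 0.076, and the median of the 10 was -0.14 against -0.015 over all transcripts. With library totals PSMB4 (-0.16, adjusted p = 0.054) and PSMA2 (-0.084, adjusted p = 0.40) were not called, PSMA4 was (0.32, adjusted p = 7.05e-07), and PSMA3 (0.24, adjusted p = 0.0031) and PSMA5 (0.21, adjusted p = 0.013) were called higher. At 10 µM alone, which is 1 library, the calls of PSMA2 (-0.20), PSMB4 (-0.22) and PSMA4 (0.20) in naive cells were lost. At 1 µM alone, also 1 library, the PSMA4 call was lost (0.11), and the change of PSMA7 was -0.23. PSMA4 was not called with both doses as 1 group either (adjusted p = 0.092).

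In EIF4A1 KO cells 1 of the 10 was called, where 6.79% of transcripts were. PSMA6 was at 232.5 and 230.4 CPM in DMSO, 197.7 at 1 µM and 181.7 at 10 µM. Its log2 change was -0.29 (SE 0.073, adjusted p = 0.0041, edgeR), with both doses below both DMSO libraries. The call was lost in 5 of 11 alternative settings. Among these were leaving out EIF4A1 KO DMSO replicate 1 (-0.28), DESeq2 (adjusted p = 0.079), library totals (-0.15, adjusted p = 0.21) and 1 µM alone (-0.23). The 4 beta subunits lay within -0.0042 to 0.040 and the 6 alpha subunits within -0.29 to -0.086. The other genotypes did not show this split. In naive cells the median was -0.047 for alpha and -0.14 for beta subunits, and in EIF4A2 KO cells -0.13 and -0.15. A difference between the rings was not tested. With library totals PSMB2 was the 1 subunit called, higher at 0.18 (adjusted p = 0.039). Of 21018 transcripts, 2044 were called under that scaling, 1659 of them higher.

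In EIF4A2 KO cells 6 of the 10 were called, 5 of them lower, where 12.6% of transcripts were called and 7.78% were called lower. PSMA2 was at 431.6 and 432.3 CPM in DMSO, 330.2 at 1 µM and 354.1 at 10 µM, a log2 change of -0.34 (SE 0.059, adjusted p = 2.18e-06, edgeR). PSMA7 was at 490.1 and 512.4 CPM in DMSO, 392.4 at 1 µM and 409.8 at 10 µM, a log2 change of -0.32 (SE 0.058, adjusted p = 4.7e-06, edgeR). These 2 were the calls that stayed lower with library totals (-0.18, adjusted p = 0.020, and -0.16, adjusted p = 0.032).

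PSMA6 (222.7 and 247.2 CPM in DMSO, 193.1 and 201.3 CPM in PP242) changed by -0.25 (adjusted p = 0.0038), PSMB4 also by -0.25 (adjusted p = 0.00074) and PSMB1 by -0.17 (adjusted p = 0.025). PSMA4 was again higher, by 0.18 (adjusted p = 0.0098). The 3 lower calls of PSMA6, PSMB4 and PSMB1 were lost with library totals, where PSMA3 (0.22) and PSMB2 (0.17) were called higher beside PSMA4 (0.34). Leaving out EIF4A2 KO DMSO replicate 1 ended the calls of PSMA4 (adjusted p = 0.23), PSMB1 (0.25) and PSMB4 (0.17), and leaving out replicate 2 that of PSMA6 (0.20). DESeq2 did not call PSMA4 (adjusted p = 0.090), PSMA6 (0.12) or PSMB1 (0.17). The PSMB1 call was also lost at 1 µM alone (-0.20), at 10 µM alone (-0.15) and with both doses as 1 group (-0.17). That of PSMA6 was lost at 10 µM alone (-0.22), and that of PSMA4 at 1 µM alone (0.17). With a slope over a dose score in place of the mean of doses, none of the 10 was called in any genotype, where 295, 0 and 452 transcripts were called in naive, EIF4A1 KO and EIF4A2 KO cells.

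**Figure D3:**
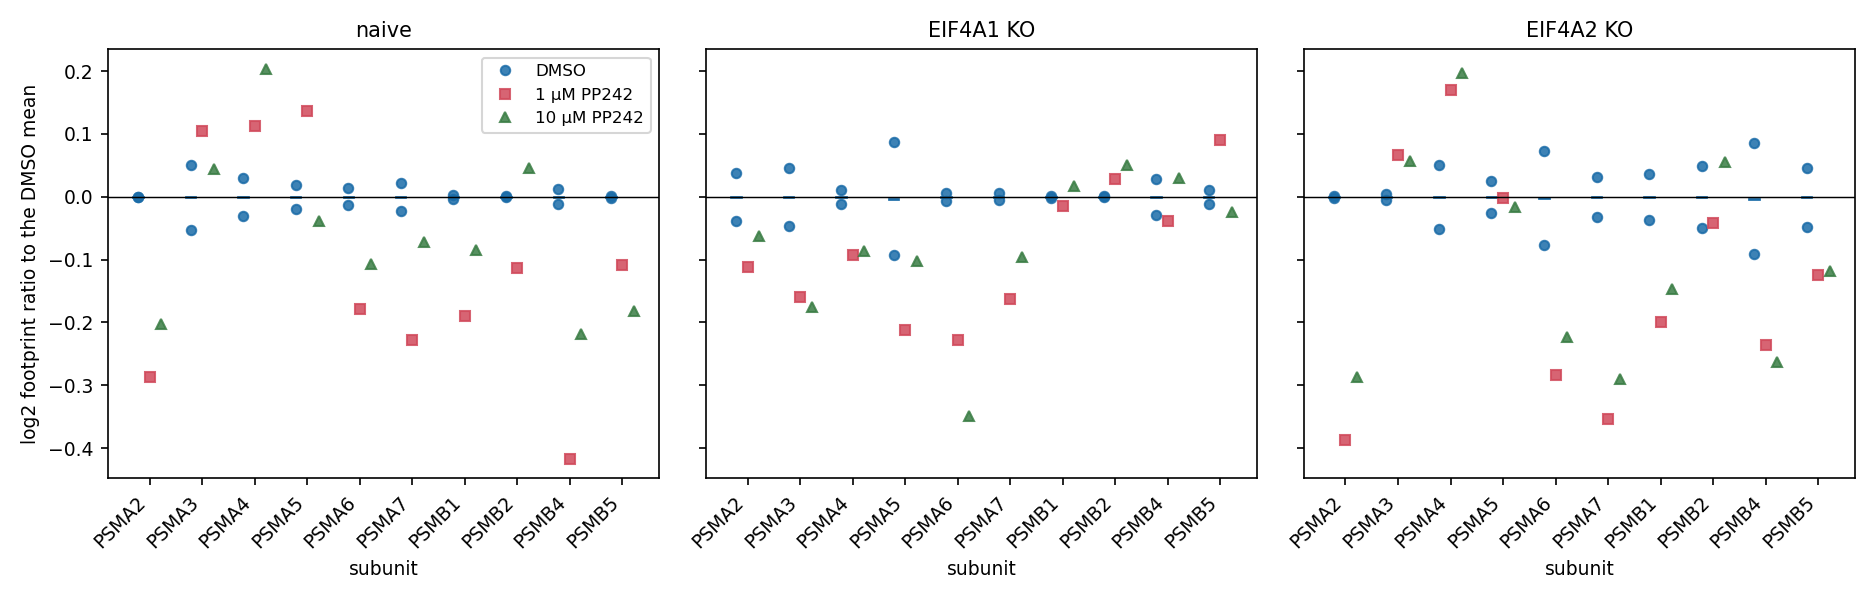
Log2 ratio of each subunit's footprints (TMM-scaled CPM) to the mean of the DMSO libraries of the same genotype; circles are the 2 DMSO libraries, squares 1 µM and triangles 10 µM PP242, 1 library each. In naive and EIF4A2 KO cells PSMA2 and PSMB4 lie below DMSO and PSMA4 above it at both doses. PSMA6 lies below DMSO at both doses in EIF4A1 KO cells.

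The difference between these responses was tested directly. PSMB4, which fell by 0.32 in naive cells, had a log2 change of -0.0042 in EIF4A1 KO cells, where its footprints were at 493.4 and 513.3 CPM in DMSO, 489.9 at 1 µM and 513.9 at 10 µM. The difference, EIF4A1 KO minus naive, was 0.31 (SE 0.085, adjusted p = 0.0081, edgeR). PSMA4, which rose in naive cells, was at 691.7 and 702.9 CPM in DMSO, 653.9 at 1 µM and 657.1 at 10 µM in the EIF4A1 KO, a log2 change of -0.089. Its difference was -0.25 (SE 0.078, adjusted p = 0.032, edgeR), opposite in sign to that of PSMB4.

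These were 2 of 10, where 6.99% of transcripts were called. Of 13 alternative settings the PSMA4 call was lost in 8 and the PSMB4 call in 4, with 10 µM alone among them for both. Against EIF4A2 KO cells, PSMA4 alone was called, at -0.27 (SE 0.077, adjusted p = 0.013, edgeR), 1 of 10 where 7.29% were. PSMB4 (0.24, adjusted p = 0.054) and PSMA2 (0.25, adjusted p = 0.053) missed the threshold there. The PSMA4 call against EIF4A2 KO cells was lost in 6 of 13 alternative settings, 1 µM alone and 10 µM alone among them. Between EIF4A2 KO and naive responses none of the 10 was called, and 0.167% of transcripts were; 1 of the 10, PSMA7, had an unadjusted p under 0.05 (difference -0.17, adjusted p = 0.69). None of the 10 was called in that comparison by DESeq2 either. The PSMA4 difference from naive was lost without naive replicate 2 (adjusted p = 0.14) or either EIF4A1 KO DMSO library (0.090 and 0.10), and that of PSMB4 without EIF4A1 KO replicate 1 (0.084). The PSMA4 difference from the EIF4A2 KO was lost without EIF4A1 KO replicate 2 (adjusted p = 0.055) or EIF4A2 KO replicate 1 (0.13). PSMB4 was called there without EIF4A2 KO replicate 2 (0.33, adjusted p = 0.013). With DESeq2 the adjusted p was 0.11 for both genes against naive and 0.052 for PSMA4 against the EIF4A2 KO.

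The pulldown assay measured how much of each mRNA was recovered with the tagged helicase relative to the input lysate. A negative log2 value says that an mRNA made up a smaller share of the pulldown than of the input, not that it was unbound. With SBP-eIF4A1, 8 of the 10 were called, 7 lower and 1 higher, where 55.6% of 25393 transcripts were called and 26.7% were called lower. The median of the 10 was -0.38, against 0.033 over all transcripts and 0.19 over 2002 others in the same range of listed length. Ranked from the lowest change over all transcripts, the 7 lower calls lay at percentiles 6.6 (PSMA4) to 38.2 (PSMA5).

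PSMA4 was at 202.6 and 205.9 CPM in the inputs and at 80.8 and 86.3 CPM in the pulldowns, the largest change of the 10 at -1.29 (SE 0.077, adjusted p = 3.63e-10, edgeR). PSMA6 was at 93.9 and 90.0 CPM in the inputs and at 47.3 and 47.7 CPM in the pulldowns (-0.95, SE 0.073, adjusted p = 8.63e-09, edgeR). PSMA3, the alpha7 subunit, was at 92.7 and 95.3 CPM in the inputs and at 51.3 and 64.2 CPM in the pulldowns (-0.70, SE 0.087, adjusted p = 2.73e-06, edgeR). In all 3 the pulldowns lay below the inputs.

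PSMA7 was the 1 subunit that rose, from 264.9 and 279.9 CPM in the inputs to 338.6 and 361.7 CPM in the pulldowns (0.36, SE 0.059, adjusted p = 5.88e-05, edgeR). PSMB4 (0.070) and PSMB5 (0.057) were not called. The call of PSMA5 (-0.24, adjusted p = 0.0099) was lost when either input or pulldown replicate 1 was left out (adjusted p from 0.053 to 0.062).

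With SBP-eIF4A2 all 10 were called lower, where 60.1% of transcripts were called and 30.3% lower. The median was -1.14 against 0.017 over all transcripts. PSMA4 was at 216.7 and 210.3 CPM in the inputs and at 53.5 and 43.6 CPM in the pulldowns (-2.14, SE 0.078, adjusted p = 1.01e-12, edgeR). PSMA6 was at 112.6 and 123.2 CPM in the inputs and at 31.3 and 29.3 CPM in the pulldowns (-1.96, SE 0.072, adjusted p = 1.18e-12, edgeR). PSMA3 was at 99.3 and 106.1 CPM in the inputs and at 32.4 and 31.6 CPM in the pulldowns (-1.68, SE 0.087, adjusted p = 6.13e-11, edgeR). PSMA4, PSMA6 and PSMA3 were the 3 with the lowest values with either helicase and PSMA7 the highest, at -0.35 with SBP-eIF4A2.

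The recovery with eIF4A1 exceeded that with eIF4A2 for each of the 10. The difference was called for 9, all higher with eIF4A1, where 16.3% of transcripts were called and 10.6% higher. The median difference was a log2 value of 0.82, against 0.034 over all transcripts and 0.17 over 2002 others in the same range of listed length. PSMB5 had the largest difference, 1.01 (SE 0.10, adjusted p = 4.52e-06, edgeR): its pulldowns were at 106.1 and 105.5 CPM with eIF4A1 and at 64.7 and 76.4 CPM with eIF4A2, from inputs of 102.3 and 101.1 and of 135.7 and 138.4 CPM.

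PSMA6 differed by 1.01 (adjusted p = 5.98e-06), PSMA3 by 0.98 (adjusted p = 4.2e-05) and PSMB1 by 0.96 (adjusted p = 1.42e-06). PSMA5 had the smallest difference, 0.30 (SE 0.10, adjusted p = 0.056), which was called without SBP-eIF4A2 pulldown replicate 1 (0.43, adjusted p = 1.44e-05). With library totals the median of all transcripts moved to -0.27 and the share of higher among all calls from 65.2% to 16.7%, and the same count of 9 subunits was called higher, with a median over the 10 of 0.51 and PSMA5 at -0.010. The median of the 10 exceeded that of all transcripts by 0.78 under both scalings. A change of scaling shifts all transcripts about alike, so it could not have altered this gap.

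In the siRNA experiment, with control siRNA, the 10 were recovered with SBP-eIF4A1 at much lower shares than in the experiment without siRNA. All 10 were called lower, where 49.1% of 25482 transcripts were called and 24.1% lower. The median was -2.42, against 0.077 over all transcripts. PSMA6 was at 136.8 and 163.1 CPM in the inputs and at 21.7 and 20.5 CPM in the pulldowns (-2.83, SE 0.20, adjusted p = 2.46e-13, edgeR). PSMB1 was at 361.3 and 394.3 CPM in the inputs and at 59.2 and 55.2 CPM in the pulldowns (-2.72, SE 0.19, adjusted p = 1.43e-13, edgeR). PSMB2, the beta4 subunit, was at 200.4 and 213.2 CPM in the inputs and at 36.5 and 26.6 CPM in the pulldowns (-2.71, SE 0.20, adjusted p = 5.59e-13, edgeR).

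PSMA7 again had the highest value, -1.54 (356.9 and 353.4 CPM in the inputs, 139.2 and 105.8 CPM in the pulldowns). So PSMA7 ranked first of 10 in all 3 pulldowns, while PSMA4, last in both experiments without siRNA, was tied for sixth here with PSMB5 (-2.51 each). The 2 experiments were fitted and scaled separately, and the gap between medians of -0.38 and -2.42 was not tested. With library totals these medians were -0.52 and -1.99. That scaling moved the median of all transcripts of the siControl comparison to 0.50 and the share of higher among its calls from 50.9% to 73.3%.

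The spread over the 10 was wider in pulldowns than in inputs. The coefficient of variation of CPM per listed length over the 10 was 36.5% in SBP-eIF4A1 inputs and 63.5% in the pulldowns, 32.2% and 63.2% for SBP-eIF4A2, and 34.6% and 54.6% with control siRNA, each the mean of 2 libraries. No 2 libraries of a pulldown and its input overlapped in this measure: the inputs ran from 30.8% to 37.2% and the pulldowns from 49.3% to 66.3%. This is a description over 10 transcripts, with no test.

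**Figure D4:**
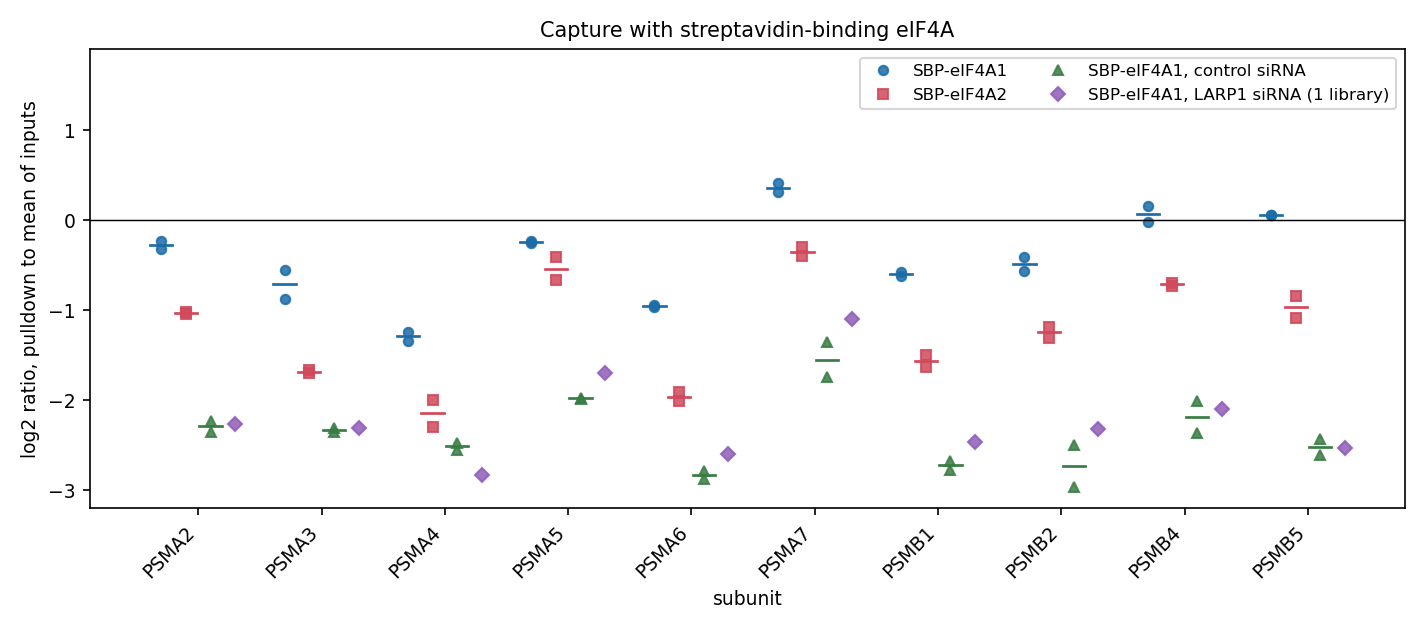
Log2 ratio of each subunit's CPM in single pulldown libraries to the mean of the matching inputs, with short lines for means; the LARP1 siRNA pulldown is 1 library. SBP-eIF4A2 points lie below SBP-eIF4A1 points for every subunit, both siRNA series lie lowest, and PSMA7 is the highest subunit in each series.

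After LARP1 siRNA, input levels of these mRNAs were lower in point estimate than after control siRNA, with none of the 10 called by edgeR. All 10 log2 changes were below 0 with TMM, from -0.63 for PSMB4 to -0.15 for PSMA4, with a median of -0.47 against 0.011 over all transcripts and -0.041 over 1993 others in the same range of listed length. Of all 25482 transcripts 0.44% were called. At an unadjusted p under 0.05, 8 of the 10 were lower, where 5.82% of transcripts were.

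PSMB4 was at 382.7 and 427.7 CPM in the siControl inputs and at 264.7 and 260.0 CPM in the siLARP1 inputs (SE 0.18, adjusted p = 0.099, edgeR). PSMA4 was at 308.2 and 332.9 CPM in the siControl inputs and at 219.7 and 359.2 CPM in the siLARP1 inputs (SE 0.20, adjusted p = 0.83, edgeR). For PSMB4 the groups did not overlap, whereas the second siLARP1 library put PSMA4 above both controls.

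DESeq2, run on the same counts, called PSMB4 (-0.65, adjusted p = 0.018), PSMB1 (-0.57, adjusted p = 0.024) and PSMA5 (-0.54, adjusted p = 0.040) lower, 3 of the 10, where 2.41% of the 10167 transcripts with a DESeq2 adjusted p were called lower. With no filter on low counts, edgeR called PSMB4 (adjusted p = 0.047). The siLARP1 inputs were the replicate pair farthest apart of all (chi-square per degree of freedom 13.1), and PSMA7 stood at 274 and 207 CPM in them. Library totals moved the median of all transcripts to 0.19, the median of the 10 to -0.28, and the share of higher among all calls from 64.3% to 97.9%, with PSMA4 at 0.039, the 1 sign that changed. The median of the 10 minus that of all transcripts was -0.48 under both scalings, a gap that a common shift of all transcripts leaves in place.

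**Figure D5:**
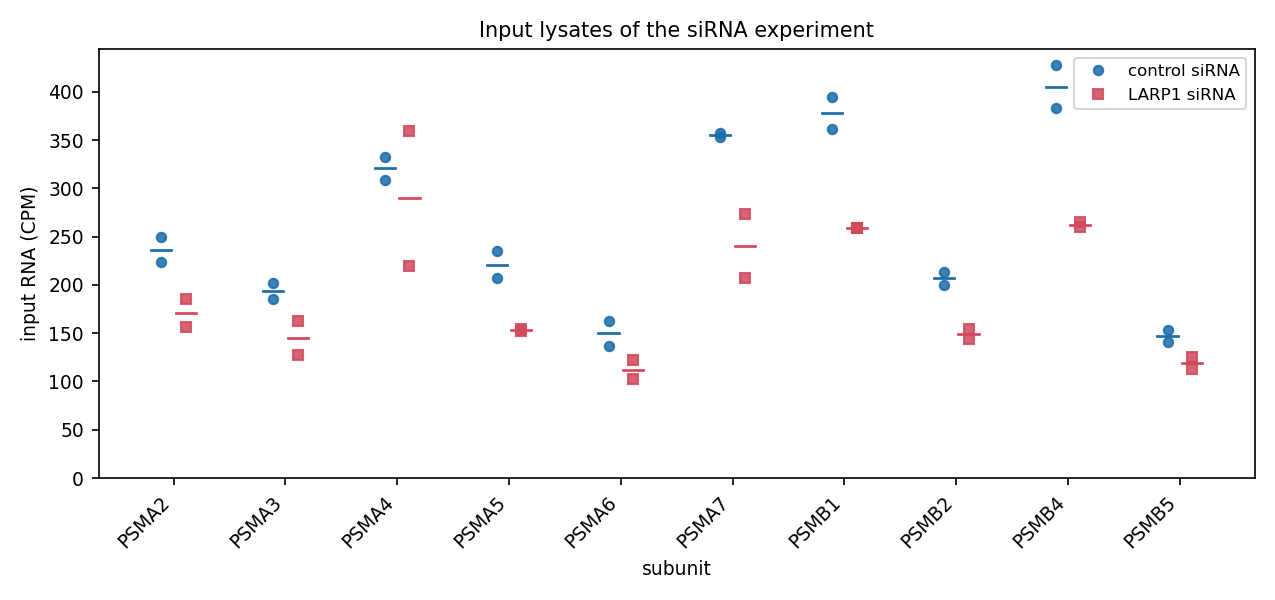
Input RNA of each subunit in CPM after control siRNA (circles) or LARP1 siRNA (squares), 2 libraries each, with short lines for means. For PSMB4 both siLARP1 libraries (264.7 and 260.0 CPM) lie below both siControl libraries (382.7 and 427.7 CPM). For PSMA4 the siLARP1 libraries stand at 219.7 and 359.2 CPM, on either side of the controls. None of the 10 was called by edgeR.

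Recovery with SBP-eIF4A1 after LARP1 siRNA rested on 1 pulldown library, which the fit assumes to vary like the other groups. None of the 10 was called as differing from control siRNA in enrichment, nor was any other transcript (0%); 795 transcripts but none of the 10 had an unadjusted p under 0.05, and DESeq2 called 0 of the 10. The highest difference was that of PSMA7, 0.44 (SE 0.30), with 112.1 CPM in the siLARP1 pulldown, and the lowest that of PSMA4, -0.32 (SE 0.32), with 40.7 CPM. At these standard errors, differences of this size were not detectable. The median of the 10 was 0.15, against -0.046 over all transcripts.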

How the data were processed

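The authors deposited, per library, raw read counts per Ensembl transcript and a length column of unstated unit, with no header. The submitters' processing notes name STAR 2.7.0a, CASAVA 1.8 and build hg38, while the counting step is not given in the sources used here. Many transcripts had identical or closely correlated counts, so 94734 transcripts with counts were reduced to 34187, 1 per locus: identical rows were collapsed, and rows within 10 of a kept row with a Pearson correlation of log2 CPM of at least 0.9 (pseudocount 0.5) were dropped, the 10 proteasome transcripts being kept first. All 31 libraries were used. The members, lists and tests were chosen with earlier results of these data known. All 10 were named, with per-library values for up to 3 called members per comparison. Tests used edgeR 4.0.16 (R 4.3.3) with TMM, filterByExpr (minimum count 10, minimum total 15), 1 mean per group and two-sided quasi-likelihood tests in 6 fits. The fits were also run on simulated counts with planted changes of 1 log2 unit. Those are larger than any PP242 change given above, so that run cannot speak to calls of that size. Alternatives were library totals, DESeq2 1.42.0, no filter, all distinct transcripts, single doses, a dose slope, a replicate block and each replicate left out. The labels give same-numbered libraries no shared source, so numbers were not taken as pairing. With 2 libraries or 1 per group, the spread between replicates enters every standard error beside the counts.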

Additional observations from a re-analysis of the deposited data

Results flagged for a closer look

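These values stand apart because the same contrast differed between genotypes or between tagged proteins by the test of the difference itself (edgeR, adjusted p under 0.05). In the PP242 response, the log2 difference EIF4A1 KO minus naive was -0.25 for PSMA4 and 0.31 for PSMB4, and EIF4A1 KO minus EIF4A2 KO was -0.27 for PSMA4. Each of these PP242 calls was lost in some of the alternative settings, as given above. In recovery relative to input, SBP-eIF4A1 minus SBP-eIF4A2, the log2 difference was 0.76 for PSMA2, 0.98 for PSMA3, 0.85 for PSMA4, 1.01 for PSMA6 and 0.71 for PSMA7 among the alpha subunits. Among the beta subunits it was 0.96 for PSMB1, 0.76 for PSMB2, 0.78 for PSMB4 and 1.01 for PSMB5. No group had 4 or more libraries, so single libraries were not examined as outliers.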

How the results depend on the processing

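The value followed here is the median log2 change of the 10 subunits, set against the spread between replicates. Library totals in place of TMM, chosen after seeing the data, moved it to -0.071 for DMSO footprints in the EIF4A1 KO, to 0.021, 0.053 and 0.012 for PP242 in naive, EIF4A1 KO and EIF4A2 KO cells, to -0.52, -0.98 and -1.99 for the SBP-eIF4A1, SBP-eIF4A2 and siControl pulldowns, to 0.51 for their eIF4A1 minus eIF4A2 difference and to -0.28 for the siLARP1 input. The uncalled values of PSMA6 (0.018), PSMA7 (0.011), PSMB1 (0.024) and PSMB5 (0.016) for PP242 in naive cells, of PSMA7 (0.011) in EIF4A1 KO cells and of PSMA5 (-0.010) in the eIF4A difference changed sign under it. With 10 µM alone the PP242 median was -0.078 in naive cells, and for EIF4A1 KO minus naive it was 0.10 with 1 µM and -0.0092 with 10 µM. With a dose slope the medians were -0.054, -0.042 and -0.075 in the 3 genotypes, 0.0061 for EIF4A1 KO minus naive and 0.033 for EIF4A1 KO minus EIF4A2 KO. With no filter the median was -0.050 for footprints relative to RNA and -1.17 for SBP-eIF4A2, and with all distinct transcripts -1.15 for the latter. Without length the coefficient of variation was 35.3% for footprints and 35.9% for RNA. Leaving out 1 library at a time, medians ran from -0.056 to 0.033 for footprints relative to RNA, from -0.17 to -0.10 for PP242 in EIF4A2 KO cells, from -0.46 to -0.33 for SBP-eIF4A1, from -1.20 to -1.15 for SBP-eIF4A2 and from 0.76 to 0.89 for the difference. The cause of these shifts was not tested.

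Same-numbered libraries correlated in their deviations between -0.118 and 0.44. The replicate block gave a median of -0.16 for RNA, -0.11 and -0.054 for DMSO footprints of the knockouts, -0.38 for SBP-eIF4A1, -1.14 for SBP-eIF4A2, -2.42 for siControl and -0.47 for the siLARP1 input, and changed no call of the 10. With crossed siLARP1 numbers 324 transcripts were called in that input comparison against 112, and 0 of the 10 in both. No paired analysis was possible for PP242 because those libraries carry no replicate number. DESeq2 called 5402 transcripts against 9208 in RNA and 647 against 2077 for PP242 in naive cells. All distinct transcripts gave 26611 and 6681.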
